A study of Mus musculus with 8 samples.

Results

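The proteasome genes were taken as the protein-coding rows of the deposited gene table whose symbol begins with *Psm*, a letter from a to g and a digit. This rule gave 50 genes of 54532 rows, of which 49 had enough reads to be tested among 13560 tested genes. They were compared between 4 libraries of EpCAM+ and 4 libraries of EpCAM- cells, sorted from the Lin- C-KIT+ SCA-1+ (LSK) bone marrow of C57BL/6 mice aged 8 to 12 weeks, 14 days after the final pIpC dose. Both fractions are *Zeb1*-/-: pIpC induced Mx1-Cre in *Zeb1* fl/fl mice, and no library came from control mice, so the comparison is between fractions within the mutant marrow. Mx1-Cre is interferon-driven and also acts outside blood cells. The question is how *Zeb1*-/- LSK cells that carry the epithelial adhesion molecule EpCAM differ from those that do not. *Epcam* reached 187 ± 32.7 CPM (SD, n = 4) in EpCAM+ and 3.86 ± 3.61 CPM in EpCAM- libraries. CPM here are read counts relative to the TMM-scaled library size.

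The proteasome degrades proteins tagged with ubiquitin. A barrel-shaped core holds the proteolytic sites inside rings of alpha and beta subunits, and a cap of ATPase and non-ATPase subunits recognises, unfolds and feeds in the substrate. In blood cells and after interferon, the catalytic beta subunits encoded by *Psmb5*, *Psmb6* and *Psmb7* are exchanged for those encoded by *Psmb8*, *Psmb9* and *Psmb10*, which gives the immunoproteasome and a peptide output suited to MHC class I presentation. The *Psme1* and *Psme2* products form an interferon-inducible activator that can take the place of the cap.

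Nearly all genes of the cap, most of the assembly factors and 7 of 15 genes of the constitutive core were lower in EpCAM+ cells. None of the 5 immunoproteasome genes was called lower, where 20.8% of all tested genes were. The counts depended on the scaling, with 23 proteasome genes lower by edgeR with upper-quartile scaling and 24 with library totals. In the core, 1 alpha and 1 beta gene were lower under the first of these and 1 and 2 under the second. Of 49 tested genes, 31 were lower and 1 (*Psmb9*) higher in EpCAM+ cells by the quasi-likelihood test of edgeR (adjusted p under 0.05, with Benjamini-Hochberg adjustment over all tested genes), and 17 were not called. Over all tested genes 20.8% were lower, 21.6% higher and 42.4% were called in either direction. The median log2 fold change, EpCAM+ over EpCAM-, was -0.34 over the 49 genes and 0.02 over all tested genes. The changes were small, from -0.63 for *Psmd7* to 0.36 for *Psmb9*. In 28 of the 49 genes every EpCAM+ library lay below every EpCAM- library (20% of all tested genes), and in 1 gene every EpCAM+ library lay above (20.1%; 40.1% of all tested genes did not overlap in either direction). The 49 genes together made up 12710 ± 565 CPM (SD, n = 4) in EpCAM+ and 15145 ± 1137 CPM in EpCAM- libraries. The tests measure the spread between samples that the labels describe as 4 mice per genotype. All libraries are of the same genotype, and whether both fractions came from the same 4 mice is not stated. The main tests treated the libraries as unpaired. In bulk RNA, fewer cells of a type and less RNA per cell cannot be told apart.

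**Figure D1:**
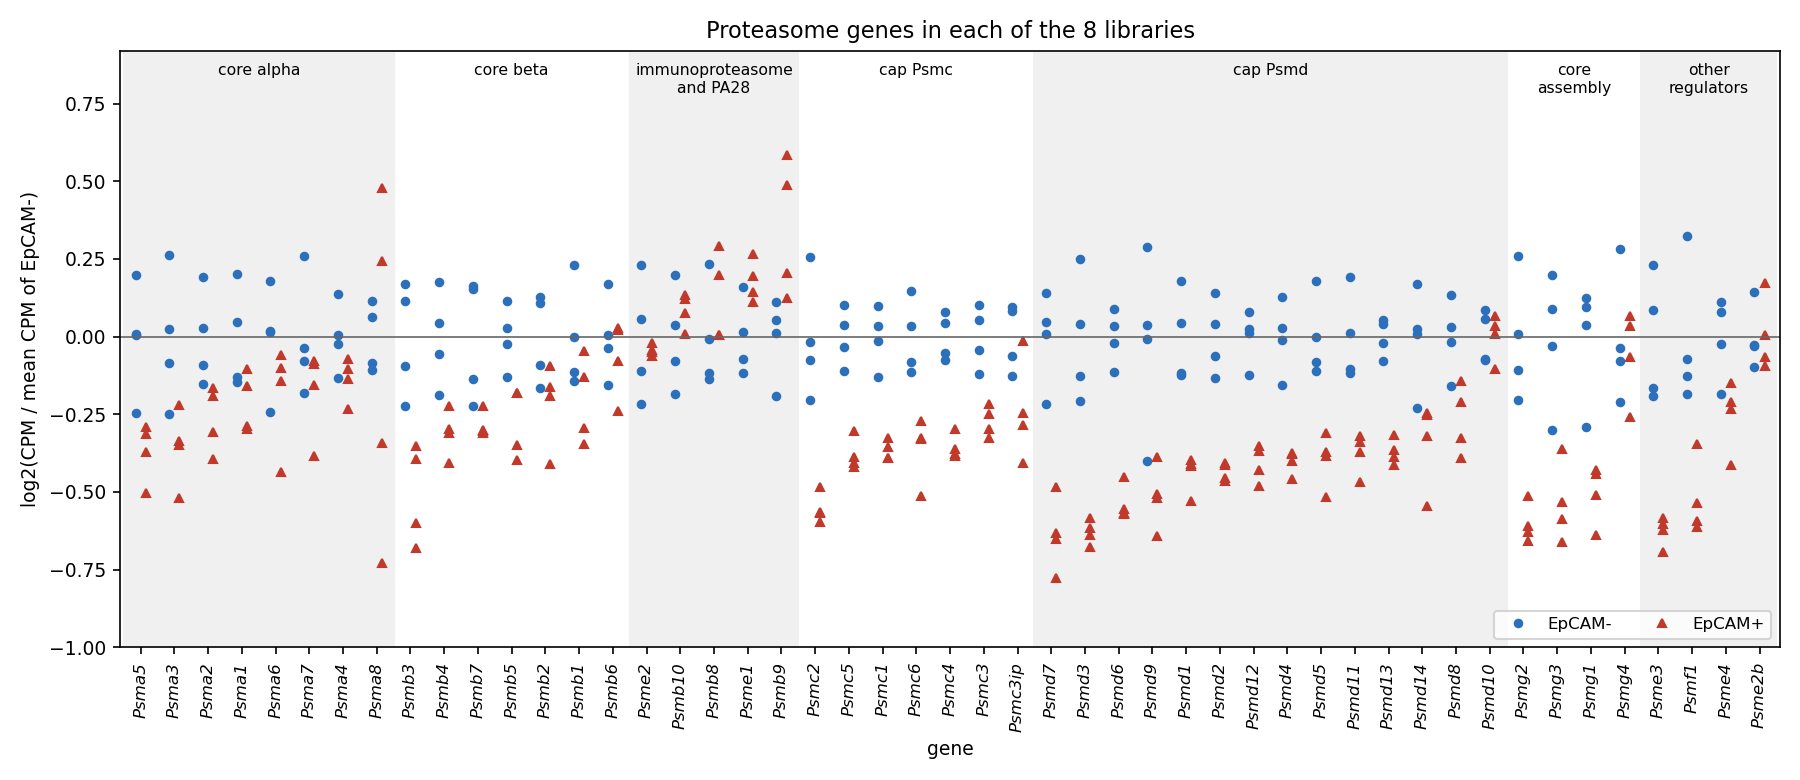
Log2 of the CPM of each gene in each library over the mean CPM of the 4 EpCAM- libraries, for the 49 tested proteasome genes in 7 groups. Circles are EpCAM- and triangles EpCAM+ libraries. In the cap groups nearly all triangles lie below the circles, and in the immunoproteasome group the triangles reach 0 or above for *Psmb8*, *Psmb9*, *Psmb10* and *Psme1*.

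Total counts on genes ran from 14114491 to 17073546 per library. EpCAM+ replicate 1 stood apart from the other EpCAM+ libraries, with *Jchain* at 3525 CPM against 199 to 429 CPM in the others. It was the lowest EpCAM+ library for 34 of the 49 proteasome genes, against 28.5% of all tested genes, and without it 27 were lower and *Psmb9* was no longer called. EpCAM- replicate 1 was the lowest EpCAM- library for 33 of them. *Zeb1* read 14.8 to 23.7 CPM in EpCAM+ and 9.49 to 14.0 CPM in EpCAM- libraries (log2 fold change 0.72, adjusted p = 0.00599, edgeR). These counts do not check the deletion, since both fractions carry it and the reads are summed over the whole gene. Of 12 stem and progenitor markers, 9 were higher in EpCAM+ cells and 0 lower (0 in this and each marker list given below as having none lower or none higher also at an unadjusted p under 0.05). *Kit* and *Ly6a*, which encode C-KIT and SCA-1, were read in all 8 libraries, and both were among those higher. *Ly6a* read 351, 195, 140 and 116 CPM in EpCAM+ and 71.7, 61.3, 16.4 and 15.7 CPM in EpCAM- libraries (log2 fold change 2.28, adjusted p = 0.0354, edgeR).

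Promoters are shown for *Psmb5*, *Psmb6* and *Psmd6*. *Psmb5* and *Psmb6* are the constitutive catalytic subunits whose windows hold a match to the core pattern of the antioxidant response element. *Psmd6* is the gene with the smallest adjusted p. RefSeq start windows (GRCm38.p6, 250 bases before and 50 after each start) were at hand for 42 of the 50 genes, in 45 windows. *Psmb7* had no window and was not searched. Only stretches before the first annotated exon base are printed, 5′ to 3′ along the gene. Capitals mark TGACNNNGC in *Psmb5* and *Psmb6* and CAGGTG, an E-box sequence that ZEB1 can bind, in *Psmd6*.
Psmb5, chr14:54618023-54618222, minus strand: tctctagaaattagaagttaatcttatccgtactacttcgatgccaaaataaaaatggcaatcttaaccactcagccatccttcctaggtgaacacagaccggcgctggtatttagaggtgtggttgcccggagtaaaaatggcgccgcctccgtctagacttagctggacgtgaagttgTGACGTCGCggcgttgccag
Psmb6, chr11:70525157-70525356, plus strand: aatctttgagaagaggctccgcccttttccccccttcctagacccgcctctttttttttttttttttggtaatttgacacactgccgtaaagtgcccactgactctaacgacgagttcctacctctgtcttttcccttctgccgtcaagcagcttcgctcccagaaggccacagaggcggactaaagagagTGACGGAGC
Psmd6, chr14:14120985-14121184, minus strand: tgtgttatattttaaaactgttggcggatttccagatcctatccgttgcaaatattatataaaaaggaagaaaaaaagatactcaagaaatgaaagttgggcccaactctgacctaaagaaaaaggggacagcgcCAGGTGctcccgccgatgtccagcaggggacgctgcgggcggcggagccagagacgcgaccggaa

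Counted from the start as 0, the matches lay at -47 to -39 in *Psmb5*, at -9 to -1 in *Psmb6* and at -104 to -99 in *Psmd6*. On both strands TGACNNNGC was found in 13.3% of the 45 windows (*Psmb5*, *Psmb6*, *Psmc6*, *Psmd9*, *Psmd12* and *Psme4*) and in 12.4% of all 32851 windows. CAGGTG was in 22.2% against 20.2%, and TTCNNNGAA, the core of a STAT site, in 6.67% against 8.3%. The core of the interferon-stimulated response element, searched as GAAA repeated after any 2 bases, was in 11.1% (*Psmb3*, *Psmd4*, *Psmd9*, *Psme1* and *Psmg4*) against 3.44%. The last patterns share letters and may overlap, and a match is a description of the sequence alone. The 5 genes with the repeated GAAA had log2 fold changes from -0.51 (*Psmd9*) to 0.18 (*Psme1*).

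The alpha subunits form the outer rings of the core and its gate, and most of their genes were not called. All 8 tested had a negative log2 fold change (median -0.19), except that *Psma8* turned positive under upper-quartile scaling, library totals and a filter of 10 counts in every library, and 3 were called lower (*Psma5*, *Psma3* and *Psma2*). *Psma5* read 184, 210, 201 and 213 CPM in EpCAM+ replicates 1 to 4 and 220, 299, 261 and 262 CPM in EpCAM- replicates 1 to 4. The fractions did not overlap, and the log2 fold change was -0.37 (SE 0.09, adjusted p = 0.00928, edgeR). *Psma3* read 211, 239, 237 and 259 CPM in EpCAM+ and 254, 363, 284 and 307 CPM in EpCAM- libraries. Here EpCAM+ replicate 4 was above EpCAM- replicate 1, and the log2 fold change was -0.35 (SE 0.11, adjusted p = 0.0209, edgeR). *Psma2* read 330, 380, 351 and 387 CPM against 391, 495, 408 and 442 CPM, without overlap (log2 fold change -0.26, SE 0.09, adjusted p = 0.0364, edgeR). The *Psma2* call was lost in 4 of 8 fits with a library left out (EpCAM+ replicate 1 or 3, EpCAM- replicate 2 or 4, adjusted p up to 0.0909), with upper-quartile scaling (0.153) and with library totals (0.124, edgeR). The *Psma3* call was lost without EpCAM+ replicate 1 (adjusted p = 0.0528) and with both scalings (0.0722 and 0.0521, edgeR).

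*Psma1*, *Psma4*, *Psma6* and *Psma7* were not called, with log2 fold changes of -0.21, -0.14, -0.18 and -0.17. *Psma8*, the testis-enriched alternative to *Psma7*, was the least read of the 8, at 7.98 to 18.4 CPM, with a log2 fold change of -0.01 and the widest standard error (0.23). EpCAM+ replicate 1 was the lowest EpCAM+ library for all 8 alpha genes. Without it 1 alpha gene was called lower (18.1% of all tested genes). With the replicate number as a block 6 were (25% of all tested genes), *Psma1*, *Psma6* and *Psma7* being added.

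The constitutive beta subunits line the inner rings, and those of *Psmb5*, *Psmb6* and *Psmb7* cut the substrate. All 7 had a negative log2 fold change (median -0.27), except that *Psmb6* turned positive under upper-quartile scaling and library totals, and *Psmb3*, *Psmb4*, *Psmb5* and *Psmb7* were called lower. *Psmb3*, a structural subunit, read 347, 424, 367 and 436 CPM in EpCAM+ and 477, 602, 521 and 626 CPM in EpCAM- libraries. It had the largest decrease of the group, -0.50 (SE 0.11, adjusted p = 0.00361, edgeR), without overlap. *Psmb4*, also structural, read 231, 247, 249 and 262 CPM against 269, 315, 294 and 346 CPM, again without overlap (log2 fold change -0.31, SE 0.09, adjusted p = 0.0141, edgeR, but 0.0576 with upper-quartile scaling).

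*Psmb5* (ENSMUSG00000022193, chromosome 14, 54614119 to 54618022, GRCm38), which carries the chymotrypsin-like activity, read 311, 361, 322 and 361 CPM in EpCAM+ and 374, 444, 403 and 418 CPM in EpCAM- libraries. The fractions did not overlap (log2 fold change -0.27, SE 0.08, adjusted p = 0.0198, edgeR). The *Psmb5* call was lost without EpCAM+ replicate 3 (adjusted p = 0.0624) and with both scalings (0.0954 and 0.0768, edgeR). *Psmb7* (ENSMUSG00000026750, chromosome 2, 38588036 to 38644087), which carries the trypsin-like activity, read 94.3, 94.7, 95.0 and 99.99 CPM against 100.2, 130.01, 106 and 131 CPM. It too had no overlap, but EpCAM+ replicate 4 and EpCAM- replicate 1 nearly touched (log2 fold change -0.28, SE 0.09, adjusted p = 0.0297, edgeR). The *Psmb7* call held in 3 of 8 fits with a library left out, being lost without EpCAM+ replicate 1, 2 or 3 or EpCAM- replicate 2 or 4 (adjusted p up to 0.0727), with upper-quartile scaling (0.111) and with library totals (0.0855, edgeR). *Psmb6* (ENSMUSG00000018286, chromosome 11, 70525367 to 70527858), which carries the caspase-like activity, read 439, 529, 491 and 526 CPM against 466, 583, 506 and 521 CPM. The fractions overlapped and the log2 fold change was -0.06 (SE 0.09, adjusted p = 0.592, edgeR). *Psmb1* and *Psmb2* were not called, at -0.20 and -0.21, but both were called lower with the replicate number as a block (adjusted p = 0.0198 and 0.00693, edgeR). Without EpCAM+ replicate 3, 2 beta genes were called lower, *Psmb5* and *Psmb7* having lost their calls.

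Of the 5 immunoproteasome genes only *Psmb9* was called in the main fit, as higher. Among all tested genes 21.6% were higher and 20.8% lower, so this count is near the general share. By edgeR 0 of the 5 were lower (0 also at an unadjusted p under 0.05, and 0 by DESeq2). Their median log2 fold change was 0.13, against 0.02 over all tested genes. *Psmb9* (ENSMUSG00000096727, chromosome 17, 34181988 to 34187764), the inducible counterpart of *Psmb6*, read 475, 369, 391 and 508 CPM in EpCAM+ and 341, 352, 296 and 366 CPM in EpCAM- libraries. Every EpCAM+ value was above every EpCAM- value, but EpCAM+ replicate 2 only just so. The log2 fold change was 0.36 (SE 0.11, adjusted p = 0.0212, edgeR). The call was lost without EpCAM+ replicate 1 (0.31, adjusted p = 0.0581), without EpCAM+ replicate 4 (0.28, adjusted p = 0.0679) or without EpCAM- replicate 3 (0.30, adjusted p = 0.0760, edgeR). *Psmb9* overlaps *Tap1* by 212 bases on the opposite strand, and whether reads were counted by strand is not given in the sources used here.

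*Psmb8* (ENSMUSG00000024338, chromosome 17, 34197721 to 34201454), the counterpart of *Psmb5*, read 811, 710, 709 and 865 CPM in EpCAM+ and 703, 831, 651 and 644 CPM in EpCAM- libraries. EpCAM- replicate 2 exceeded 3 of the 4 EpCAM+ libraries, and the log2 fold change was 0.13 (SE 0.10, adjusted p = 0.336, edgeR). *Psmb10* (ENSMUSG00000031897, chromosome 8, 105935735 to 105938444), the counterpart of *Psmb7*, read 258, 255, 247 and 236 CPM against 241, 269, 222 and 206 CPM. The highest and the lowest value were both in EpCAM- libraries, and the log2 fold change was 0.09 (SE 0.09, adjusted p = 0.439, edgeR). *Psmb11*, the thymus-specific subunit, had 0 counts in all 8 libraries and was not tested.

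The activator genes are *Psme1* and *Psme2*, whose products form mixed rings, and *Psme3*, whose product forms a nuclear ring of its own. *Psme1* read 625, 590, 603 and 656 CPM in EpCAM+ and 504, 610, 519 and 551 CPM in EpCAM- libraries. Only EpCAM- replicate 2 reached into the EpCAM+ range, and the log2 fold change of 0.18 (SE 0.08) was not called (adjusted p = 0.0972, edgeR). It was called with the replicate number as a block (0.18, adjusted p = 0.0380, edgeR) and without EpCAM- replicate 2 (0.23, adjusted p = 0.0358, edgeR). *Psme2* read 297, 302, 300.2 and 306 CPM against 267, 365, 323 and 288 CPM, with a log2 fold change of -0.04 (SE 0.09, adjusted p = 0.725, edgeR) that turned positive under upper-quartile scaling or library totals. The EpCAM+ libraries differed little from each other and lay inside the EpCAM- range. *Psme3*, in contrast, read 229, 247, 244 and 241 CPM in EpCAM+ and 330, 325, 393 and 434 CPM in EpCAM- libraries. The fractions were far apart, and it was among the strongest decreases (log2 fold change -0.63, SE 0.10, adjusted p = 0.000606, edgeR).

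The ratio of an inducible to its constitutive subunit, taken within a library, does not depend on library scaling. *Psmb8*/*Psmb5* was 2.61, 1.97, 2.21 and 2.39 in EpCAM+ replicates 1 to 4 and 1.88, 1.87, 1.62 and 1.54 in EpCAM- replicates 1 to 4, without overlap. Its mean log2 was 1.19 ± 0.17 (SD, n = 4) against 0.78 ± 0.15, a difference of 0.41 (p = 0.0286 by an exact permutation test, two-sided, whose smallest p at this size it is). *Psmb9*/*Psmb6* was 1.08, 0.698, 0.796 and 0.966 against 0.733, 0.604, 0.586 and 0.701, with EpCAM+ replicate 2 below 2 EpCAM- libraries. The difference of the mean log2 was 0.42 (exact permutation p = 0.0857). *Psmb10*/*Psmb7* was 2.73, 2.69, 2.604 and 2.36 against 2.40, 2.07, 2.09 and 1.58, with EpCAM+ replicate 4 just under EpCAM- replicate 1. Its difference was 0.37 (exact permutation p = 0.0571).

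After Benjamini-Hochberg adjustment over the 3 pairs, all 3 ratios had p = 0.0857 (exact permutation test, n = 4 per fraction), so none passed 0.05. Each was higher in EpCAM+ in 4 of 4 pairs of libraries with the same replicate number, a paired comparison whose smallest possible exact p is 0.125. Without EpCAM+ replicate 2, *Psmb8*/*Psmb5* differed by 0.48 and *Psmb9*/*Psmb6* by 0.53, both with an adjusted exact permutation p of 0.0429. No other library left out brought any ratio under 0.05. EpCAM+ replicate 2 had the lowest EpCAM+ value of both ratios, and without it the fractions did not overlap for either. This pass thus follows from the library left out and adds no support. As fold differences of geometric means the ratios were 1.33, 1.34 and 1.29 times higher in EpCAM+ cells. The ratio of *Psme1* to *Psme3* was 2.57 in EpCAM+ and 1.48 in EpCAM- libraries (geometric means), and that of *Psme2* to *Psme1* 0.488 and 0.567, both given with no test.

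**Figure D2:**
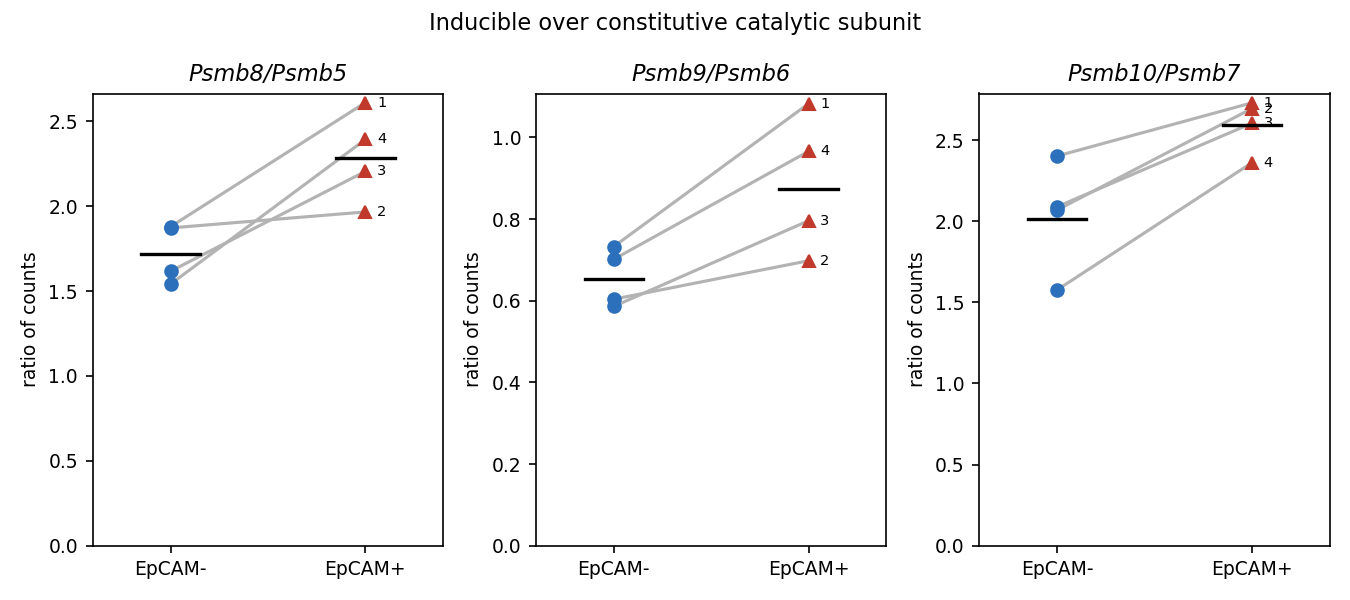
Ratio of counts of each inducible catalytic subunit to its constitutive counterpart in each library, from 0 on the y axis. Circles are EpCAM- and triangles EpCAM+ libraries, gray lines join libraries with the same replicate number (printed at the right) and black bars are geometric means. All 12 lines rise from EpCAM- to EpCAM+.

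Markers of dendritic and plasma cells were higher in the fraction in which *Psmb9* was higher. Of 12 tested dendritic cell markers 9 were higher and 1 (*Cox6a2*) lower in EpCAM+ cells, and the summed list was 16367, 1347, 4350 and 16865 CPM in EpCAM+ replicates 1 to 4 against 269 to 539 CPM in EpCAM- libraries. The order of the EpCAM+ libraries by this sum, replicate 4 first and replicate 2 last, was also their order by *Psmb9*. *Psme1* had this order too, and *Psmb8* had it except for a near tie of replicates 2 and 3 (709.8 and 709.2 CPM). It was not the order of *Psmb10*, which was lowest in replicate 4, or of *Psme2*, which was lowest in replicate 1. Nor did the 2 orders match among EpCAM- libraries. There the dendritic sum was 539, 269, 298 and 319 CPM in replicates 1 to 4, while *Psmb9* was highest in replicate 4 and lowest in replicate 3. Most of the EpCAM+ sum was *Cd74*, *H2-Ab1*, *H2-Aa* and *H2-Eb1*, genes of MHC class II presentation that are not read in dendritic cells alone. *Cd74* by itself read 7586, 520, 1987 and 8006 CPM in EpCAM+ replicates 1 to 4. *Zbtb46* and *Bst2* were not called, with log2 fold changes of -0.29 and -0.02. In the EpCAM+ libraries *Xcr1* and *Clec9a* reached 11.5 to 147 and 1.25 to 27.5 CPM, and *Cd209a* had at most 1 count. Plasma cell markers (3 of 5 tested higher, none lower) summed to 389 to 3978 CPM against 171 to 259 CPM, and B cell markers (1 of 6 higher, none lower) to 76.8 to 126 against 49.7 to 84.6 CPM, with *Pax5* at 0 counts in every library. The plasma cell sum was highest in EpCAM+ replicate 1 and lowest in EpCAM+ replicate 4, unlike *Psmb9*. The part of these cells in the *Psmb9* result was not tested.

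The cap showed the broadest decrease, with 19 of 21 tested genes lower in EpCAM+ cells and 0 higher by edgeR (0 also at an unadjusted p under 0.05 and by DESeq2; median log2 fold change -0.38). The ATPases of the *Psmc* genes form the ring that unfolds the substrate, and all 6 of them were lower without overlap, at -0.27 (*Psmc3*) to -0.55 (*Psmc2*). *Psmc2* read 221, 215, 220.0 and 233 CPM in EpCAM+ and 283, 309, 322 and 389 CPM in EpCAM- libraries (SE 0.09, adjusted p = 0.00103, edgeR). *Psmc5* read 251, 272, 257 and 254 CPM against 311, 345, 328 and 360.5 CPM (log2 fold change -0.38, SE 0.07, adjusted p = 0.00181, edgeR). *Psmc4* read 243, 256, 241 and 245 CPM against 299, 333, 304 and 325 CPM (log2 fold change -0.36, SE 0.07, adjusted p = 0.00188, edgeR). The EpCAM+ libraries lay close together for these ATPases, and the spread was mostly among EpCAM- libraries. *Psmc1* and *Psmc6* changed by -0.37 and -0.36. The *Psmc3* call was lost with upper-quartile scaling (adjusted p = 0.0656) and library totals (0.0548, edgeR). *Psmc3ip*, which has a matching symbol but encodes a meiotic recombination factor and no cap subunit, was not called (-0.23, adjusted p = 0.0765, edgeR), except with the replicate number as a block (adjusted p = 0.0279, edgeR).

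Of the 14 *Psmd* genes, which encode the non-ATPase cap subunits and some of the cap's assembly chaperones, 13 were lower (median -0.40). *Psmd6* (ENSMUSG00000021737, chromosome 14, 14112174 to 14120984), a scaffold subunit of the lid and the gene with the promoter printed above, read 207, 225, 207 and 209 CPM in EpCAM+ and 284, 327, 303 and 315 CPM in EpCAM- libraries. It had the smallest adjusted p of all proteasome genes (log2 fold change -0.54, SE 0.07, adjusted p = 0.000279, edgeR). *Psmd7* (ENSMUSG00000039067, chromosome 8, 107580381 to 107588464), the partner of the deubiquitinase of *Psmd14*, read 291, 357, 321 and 318 CPM against 429, 501, 515 and 549 CPM. It had the largest decrease of the 49 genes (-0.63, SE 0.09, adjusted p = 0.00047, edgeR), with a wide gap between the fractions. *Psmd3*, another lid scaffold, read 166, 171, 173 and 177 CPM against 230, 243, 273 and 316 CPM (log2 fold change -0.63, SE 0.10, adjusted p = 0.000552, edgeR).

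The other *Psmd* genes were as follows. The ubiquitin receptor of *Psmd4* changed by -0.40, the base scaffolds of *Psmd1* and *Psmd2* by -0.44 and -0.43, and the deubiquitinase of *Psmd14*, which removes ubiquitin from the substrate, by -0.34, all without overlap. The *Psmd14* call was lost with upper-quartile scaling (adjusted p = 0.0647) and library totals (adjusted p = 0.0535, edgeR). The lid subunits of *Psmd11*, *Psmd12* and *Psmd13* changed by -0.37, -0.41 and -0.37. *Psmd8* was called at -0.27 although its fractions overlapped, and the call was lost in 4 of 8 fits with a library left out (EpCAM+ replicate 1 or 3, EpCAM- replicate 2 or 3, adjusted p up to 0.0842), with upper-quartile scaling (0.115) and with library totals (0.0858, edgeR). Of the assembly chaperones of the cap base, those of *Psmd5* (-0.39) and *Psmd9* (-0.51) were lower, with *Psmd9* overlapping because EpCAM- replicate 1 (73.4 CPM) was under EpCAM+ replicate 4 (74.0 CPM). *Psmd10*, which encodes the chaperone gankyrin, read 88.3 to 99.3 CPM in EpCAM+ and 90.1 to 101 CPM in EpCAM- libraries, and its log2 fold change of 0.00 (SE 0.07) changed sign between settings.

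**Figure D3:**
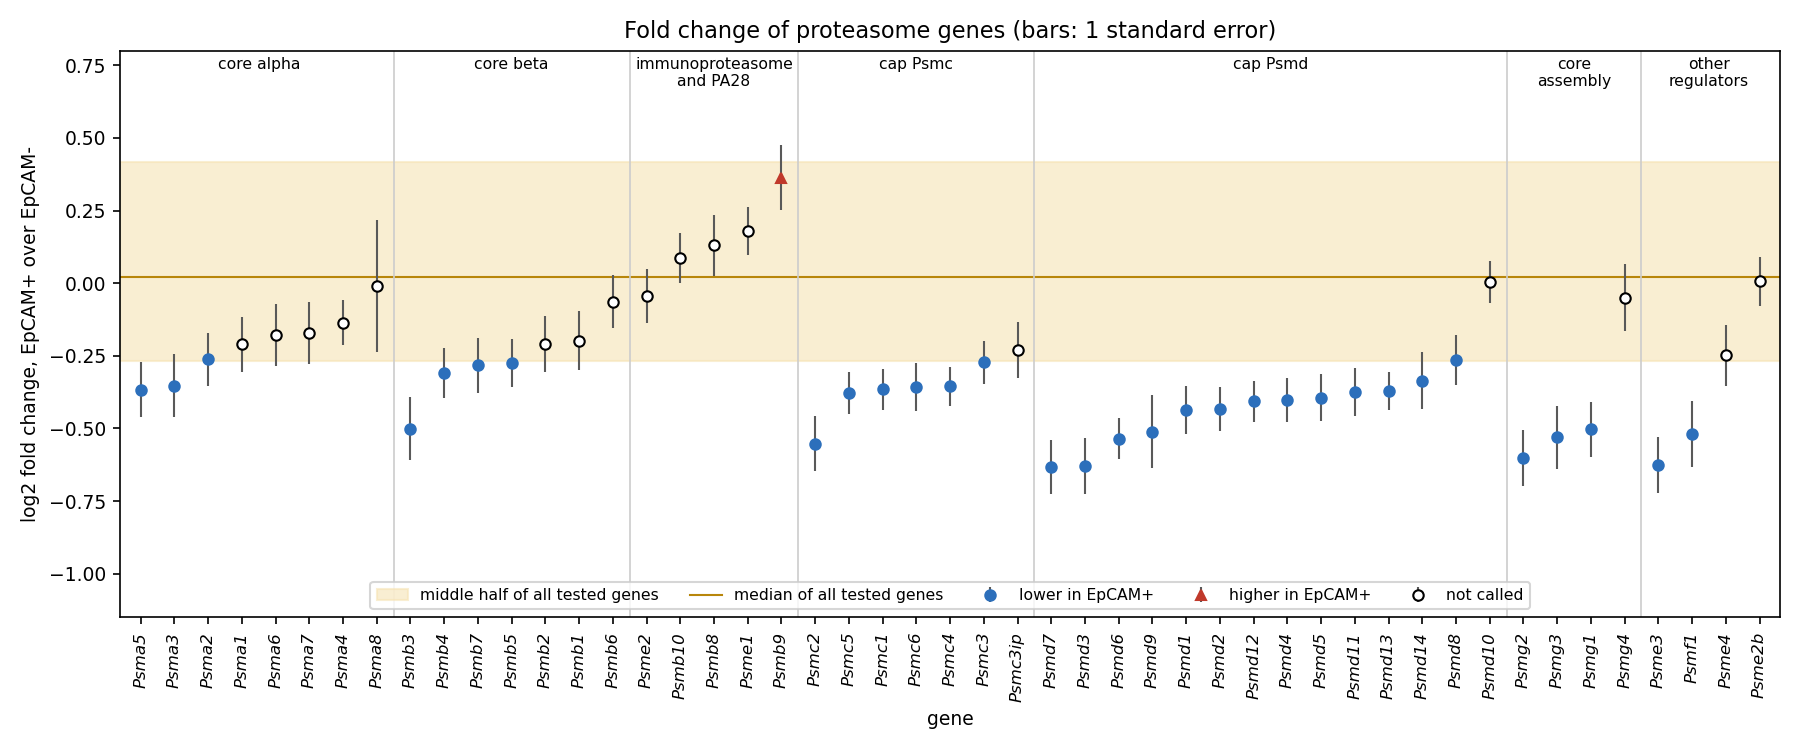
Log2 fold change, EpCAM+ over EpCAM-, with 1 standard error for each of the 49 tested genes by group. Filled circles are lower, the triangle higher and open circles not called (edgeR, adjusted p threshold 0.05), and the band spans the middle 50% of all tested genes, from -0.27 to 0.42. Most cap and assembly genes lie under the band, and the 5 immunoproteasome genes lie within it.

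The *Psmg* genes encode chaperones that build the alpha ring. Of 4, 3 were lower without overlap, and their median was -0.52. *Psmg2* read 118, 122, 120.3 and 130.3 CPM in EpCAM+ and 161, 187, 173 and 223 CPM in EpCAM- libraries (log2 fold change -0.60, SE 0.10, adjusted p = 0.000737, edgeR). *Psmg1*, its partner, read 93.4, 108, 102 and 107 CPM against 119, 155, 149 and 159 CPM (log2 fold change -0.50, SE 0.10, adjusted p = 0.00189, edgeR). *Psmg3* read 48.8, 60.2, 51.5 and 53.5 CPM against 62.7, 88.7, 75.7 and 82.2 CPM (log2 fold change -0.53, SE 0.11, adjusted p = 0.00286, edgeR). Its partner *Psmg4* was not called, at 38.1 to 47.8 CPM in EpCAM+ and 39.4 to 55.4 CPM in EpCAM- libraries (log2 fold change -0.05, SE 0.12), with a positive sign under upper-quartile scaling and library totals. The log2 fold change of *Pomp*, which encodes the chaperone of beta ring maturation, was -0.03 (adjusted p = 0.834, edgeR), with 331 ± 36.9 CPM (SD, n = 4) in EpCAM+ and 338 ± 27.1 CPM in EpCAM- libraries.

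Other regulators of the core gave a mixed picture. *Psmf1*, which encodes an inhibitor of the core, read 79.4, 76.3, 75.3 and 90.6 CPM in EpCAM+ and 106, 101, 109 and 144 CPM in EpCAM- libraries, without overlap (log2 fold change -0.52, SE 0.11, adjusted p = 0.00388, edgeR). *Psme4*, which encodes a large activator, read 17.4 to 20.9 CPM against 20.3 to 24.9 CPM and was not called (-0.25, adjusted p = 0.0755, edgeR), except with the replicate number as a block (adjusted p = 0.0427, edgeR). *Psme2b* had a log2 fold change of 0.01. Since 76.5% of the 31-base words of its transcript also occur in *Psme2* transcripts, the counting may have split reads between these genes, and both are uncertain. The 4 annotated proteasome pseudogenes whose symbols match the pattern had at most 1 count in any library.

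Some cell cycle and lineage markers also differed between the fractions. Of 8 cycling cell markers 5 were lower in EpCAM+ cells and none higher, and their sum was 2272 to 2562 CPM in EpCAM+ and 2803 to 3269 CPM in EpCAM- libraries. *Mki67*, *Top2a* and *Pcna* were not called, with log2 fold changes of -0.12, -0.10 and -0.16. Neutrophil lineage markers (3 of 7 tested lower, none higher) summed to 1004 to 1570 CPM against 10617 to 17079 CPM, led by *Mpo*, at 781 ± 269 CPM (SD, n = 4) against 10435 ± 1505 CPM. The lower genes were *Mpo*, *Elane* and *Prtn3*. *S100a8*, *S100a9*, *Camp* and *Ltf* were not called, with log2 fold changes from -0.28 (*Ltf*) to 0.17 (*S100a9*). Erythroid markers (5 of 7 lower, 1 higher) summed to 52.3 to 239 CPM against 1904 to 6625 CPM. Most of the EpCAM- sum was *Car1*, at 1599 to 5956 CPM. The higher gene was *Hbb-bt*, at 10.2 ± 5.93 CPM (SD, n = 4) in EpCAM+ and 3.98 ± 1.17 CPM in EpCAM- libraries. *Alas2*, which was not tested, had 4 to 17 counts per library. The part of these cells in the lower cap, core and assembly genes was not tested.

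Levels of different genes were compared per length, as CPM per kilobase of exon. The median over the 49 genes was 90.3 in EpCAM+ and 110 in EpCAM- libraries, and the levels ran from 2.76 ± 0.25 (SD, n = 4) for *Psme4* to 534 ± 53.2 for *Psmb2* in EpCAM- cells. In EpCAM- cells *Psmb5* stood at 456 ± 32.4 and *Psmb8* at 259 ± 31.6, *Psmb6* at 277 ± 25.9 and *Psmb9* at 92.6 ± 8.19, and *Psmb7* at 34.2 ± 4.65 and *Psmb10* at 138 ± 15.8 CPM per kilobase. All 3 inducible subunits were thus well read in both fractions. In EpCAM+ cells *Psmb8* reached 283 ± 28.3, *Psmb9* 119 ± 18.2 and *Psmb10* 146 ± 5.70 CPM per kilobase. The deposited FPKM use shorter lengths (median ratio 2.42 over these genes) and give other levels, so the order between genes depends on the length taken.

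**Figure D4:**
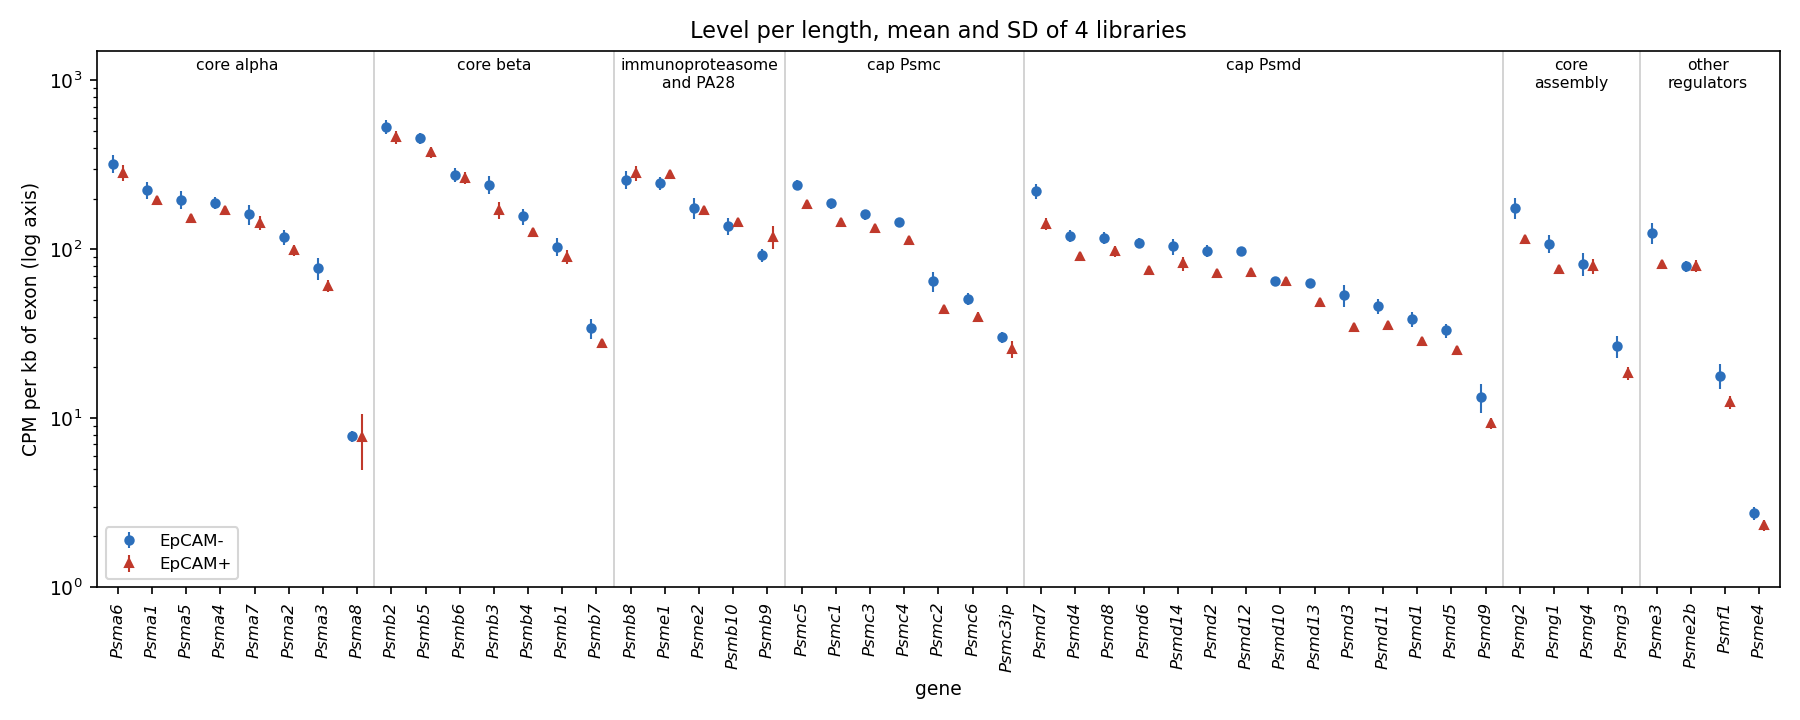
CPM per kilobase of exon on a log axis, mean and SD of 4 libraries, for the 49 tested genes by group. Circles are EpCAM- and triangles EpCAM+ cells. *Psmb2* is highest and *Psme4* lowest in both fractions.

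Genes that work with the proteasome were read from lists. Of 18 cofactors, 8 were lower and 2 higher (median -0.18). Those lower include *Adrm1*, which encodes a ubiquitin receptor of the cap (174 ± 8.81 against 256 ± 17.4 CPM, log2 fold change -0.56, adjusted p = 0.000285, edgeR), and the cap's deubiquitinases *Usp14* (-0.57) and *Uchl5* (-0.26). *Txnl1*, which encodes a thioredoxin bound to the cap, changed by -0.64, and the shuttle genes *Ubqln1* and *Ubqln4* by -0.39 and -0.43. The higher genes were *Zfand5* (0.37) and the shuttle gene *Ubqln2* (0.54). Akin to the assembly factor *Pomp*, the small cap subunit gene *Sem1* was not called (-0.13).

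Of 8 genes of the transcriptional feedback on proteasome genes, 1 was lower and 0 higher by edgeR (0 higher also at an unadjusted p under 0.05 and by DESeq2). *Nfe2l1*, which encodes the factor that induces proteasome genes when activity falls short, had a log2 fold change of 0.07 (44.6 ± 3.70 against 42.4 ± 4.62 CPM, adjusted p = 0.594, edgeR). *Nfe2l2* encodes the oxidative stress factor that binds antioxidant response elements, and its binding to the pattern matches printed above was not tested. The gene read 125, 121, 125 and 110 CPM in EpCAM+ and 159, 168, 200.04 and 187 CPM in EpCAM- libraries. The fractions did not overlap (log2 fold change -0.57, SE 0.09, adjusted p = 0.000552, edgeR). With the replicate number as a block 5 of the 8 were lower (25% of all tested genes), and without EpCAM- replicate 2 also 5 (20.4%).

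Of 10 genes of ubiquitin supply, 4 were lower and 1 higher. The activating enzyme gene *Uba1* (-0.34) and the recycling genes *Usp5* (-0.38) and *Uchl3* (-0.25) were lower. *Uchl1* was higher (0.72) at a low level, 5.94 ± 0.52 against 3.601 ± 0.44 CPM. The polyubiquitin gene *Ubb* (0.29, adjusted p = 0.0550, edgeR) was not called.

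Genes of immunoproteasome induction and peptide transport leaned to EpCAM+ cells, with 6 of 17 higher, 0 lower by edgeR and a median of 0.29. At an unadjusted p under 0.05, 9 were higher and 1 (*Ifngr1*, -0.61) lower, and by DESeq2 7 and 1. *Nlrc5*, which encodes the transactivator of MHC class I genes, read 26.3, 23.8, 27.4 and 28.3 CPM in EpCAM+ and 14.9, 10.7, 15.4 and 15.1 CPM in EpCAM- libraries. It had the largest increase of the list without any overlap (0.92, SE 0.13, adjusted p = 0.000368, edgeR). *Irf1*, which encodes an interferon-induced activator of *Psmb9*, read 192, 140, 146 and 145 CPM against 129, 116, 87.1 and 75.7 CPM, with EpCAM+ replicate 1 highest (0.61, SE 0.18, adjusted p = 0.0207, edgeR). *Irf2* (0.83), *Irf9* (0.60), *Stat2* (0.52) and the receptor gene *Ifnar1* (0.37) were also higher.

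*Tap1* and *Tap2*, the peptide transporter genes next to *Psmb9* and *Psmb8*, were not called. *Tap1* read 214, 154, 153 and 240 CPM in EpCAM+ and 154, 143, 148 and 178 CPM in EpCAM- libraries (log2 fold change 0.29, adjusted p = 0.139, edgeR), with EpCAM+ replicates 1 and 4 high as for *Psmb9*. *Tap2* had a log2 fold change of 0.12 (adjusted p = 0.275, edgeR). With the replicate number as a block 11 of the 17 were higher and 1 lower, against 25.5% and 25% of all tested genes. Without EpCAM- replicate 3 there were 3 higher, against 17.2% of all tested genes.

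Another scaling of the libraries moved all genes. Under upper-quartile scaling the median of all tested genes was 0.11, with 2077 lower and 3611 higher (2820 and 2925 with TMM), and under library totals 0.11, with 2066 and 3480. The proteasome genes lower in EpCAM+ cells were then 23 and 24, the alpha genes 1 and 1, the beta genes 1 and 2 and the cap genes 16 and 16, and *Psme1* joined *Psmb9* as higher. Relative to the median of all genes, the median of the 49 was -0.36, -0.36 and -0.35 under TMM, upper-quartile scaling and library totals, that of the cap -0.40, -0.40 and -0.40, and that of the immunoproteasome 0.11 under each.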

How the data were processed

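RNA was amplified with SMART-Seq v4, made into libraries with the NEBNext Ultra kit and sequenced as paired ends. Per the labels and the submitters' processing notes, the authors aligned reads with STAR 2.6.1d to GRCm38.p6 and counted them with featureCounts 1.5.0-p3, and the deposited counts are whole reads per gene without normalization. The authors also deposited FPKM, computed with shorter lengths than the length column of the table, and these serve only as an alternative scale for levels. Columns of the authors' own DESeq2 1.20.0 fold changes and p-values were not used. The annotation release, the strand setting and the rule for multimapping reads are not given in the sources used here.

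Counts were filtered with filterByExpr, scaled by TMM and compared with a robust quasi-likelihood fit in edgeR 4.0.16 (R 4.3.3, limma 3.58.1), two-sided, with Benjamini-Hochberg adjustment over all tested genes and a threshold of 0.05. Fold changes are EpCAM+ over EpCAM- on the log2 scale. For ratios of subunit pairs an exact permutation test (two-sided) was used. CPM per kilobase used the exon length of the table. Promoter windows came from RefSeq (GRCm38.p6), and exons from GENCODE. Figures used Python 3.11.15 and matplotlib 3.10.9. The members, gene lists and tests were chosen with earlier results of these data known. Genes given with all values are the immunoproteasome genes, their constitutive counterparts, and up to 3 called genes of each other group with the smallest adjusted p. *Nfe2l2*, *Nlrc5*, *Irf1* and *Tap1* were given with all values after these were seen.

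Libraries with the same replicate number deviated together from their fractions' means (correlation across genes 0.205 to 0.356, against -0.216 to 0.0396 for different numbers). The labels do not say what libraries with the same number share. The main edgeR fit and the exact permutation tests did not pair the samples, and pairing by number was used only as an alternative. Alternatives were DESeq2 1.42.0, DESeq2's size factors, upper-quartile scaling, library totals, other gene filters (at least 1 count in some library, at least 10 in each, or only protein-coding genes), the replicate number as a block, and each library left out in turn. Some genes counted in the lists are not reported here by name. The script was tested on simulated data. With 4 libraries per fraction and 14114491 to 17073546 counts per library, no proteasome gene that was tested fell under 7.98 CPM in any library. Whether counting error or spread between libraries limits the precision of a gene was not separated. Reads carry no molecular identifiers.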

Additional observations from a re-analysis of the deposited data

Results flagged for a closer look

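In 3 of 98 sets of 4 library values (49 genes in each of both fractions), 1 library lay far from the other 3. Chance alone marks about 1 set in 20. *Psmd1*, a scaffold of the cap base, read 195 CPM in EpCAM+ replicate 1 against 211 to 214 CPM in the other EpCAM+ libraries. *Psmb7*, a catalytic core subunit, read 99.99 CPM in EpCAM+ replicate 4 against 94.3 to 95.0 CPM. *Psmd6*, a scaffold of the lid, read 225 CPM in EpCAM+ replicate 2 against 207 to 209 CPM. All 3 values lay on the EpCAM+ side of the gap to the EpCAM- libraries.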

How the results depend on the processing

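The 31 lower proteasome genes numbered 31 with DESeq2, 38 with the replicate block, 23 with upper-quartile scaling, 24 with library totals and 27 to 32 with 1 library left out. Alpha genes called lower numbered 1 under upper-quartile scaling, 1 under library totals, 6 with the replicate block and 1 to 3 with a library left out, and beta genes 1, 2, 6 and 2 to 5. Immunoproteasome genes called higher, and with them all proteasome genes called higher, numbered 2 under upper-quartile scaling, 2 under library totals, 2 with the replicate block and 0 to 2 with a library left out. The median of the cap was -0.29 under upper-quartile scaling and -0.29 with library totals. The replicate block added 8 proteasome genes to those called and removed none. It also raised the calls over all tested genes, from 20.8% to 25% lower and from 21.6% to 25.5% higher. *Psmb8*/*Psmb5* ranged from 0.34 to 0.48 and *Psmb9*/*Psmb6* from 0.32 to 0.53 with a library left out. Only the upper values, both without EpCAM+ replicate 2, passed the threshold. With the replicate block the 3 ratios kept their size, with an exact p of 0.125 each, the smallest it allows. The median level per length was 277 in EpCAM- and 230 in EpCAM+ libraries on the deposited FPKM scale, whose lengths are shorter.

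Of the lists, induction genes called higher numbered 10 under library totals, 11 with the replicate block and 3 to 8 with a library left out, and those called lower 1 with DESeq2, 1 with the replicate block and 0 to 1. Feedback genes called lower numbered 2 with DESeq2, 5 with the replicate block and 1 to 5 with a library left out. Ubiquitin genes called higher numbered 2 with DESeq2, 2 under upper-quartile scaling, 2 under library totals, 3 with the replicate block and 1 to 2, and cofactors called higher 1 to 2 with a library left out. The sign turned for genes that were not called: *Psma8* (0.080 under upper-quartile scaling, 0.084 under library totals, 0.017 with 10 counts in every library, -0.22 to 0.16 with a library left out), *Psmb6* (0.022 and 0.022 under these scalings), *Psme2* (0.041 and 0.041, -0.12 to 0.032 with a library left out), *Psmg4* (0.036 and 0.036, -0.12 to 0.048), *Psmd10* (-0.016 with DESeq2, -0.0048 with its size factors, -0.012 with 1 count in any library, -0.027 to 0.031) and *Psme2b* (-0.012, -0.00071, -0.0081, and -0.056 to 0.049). Where a setting moved a count, the cause was not tested, except that a library left out means fewer samples and both other scalings shift all genes upward.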

Other observations

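Markers of further cell types were also read. T cell markers (2 of 3 tested higher, none lower) summed to 56.5 to 68.9 CPM in EpCAM+ and 17.6 to 31.7 CPM in EpCAM- libraries, nearly all of it *Lck*, while *Cd3e* had at most 1 count. Of natural killer cell markers only *Nkg7* was tested, and it was not called (the list summed to 635 to 797 against 685 to 885 CPM). Monocyte and macrophage markers (2 of 7 lower, none higher) summed to 84.5 to 417 against 216 to 841 CPM, and megakaryocyte markers (1 of 5 higher, none lower) to 128 to 367 against 83.5 to 286 CPM.

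Within the EpCAM- fraction the proteasome genes varied together with the library. EpCAM- replicate 2 was the highest EpCAM- library for 25 of the 49 genes and replicate 4 for 22, against 26.8% and 28.7% of all tested genes, and the 49 genes summed to 13716, 16222, 14768 and 15874 CPM in EpCAM- replicates 1 to 4. In the EpCAM+ fraction the sums were 12064, 12965, 12459 and 13352 CPM, so every EpCAM+ library lay under every EpCAM- library. The immunoproteasome genes alone summed to 2467, 2226, 2250 and 2572 CPM in EpCAM+ and 2056, 2427, 2012 and 2055 CPM in EpCAM- libraries, and these overlapped.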
